A study of Mus musculus with 24 samples.

Results

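The dual-specificity MAP kinase phosphatases described here are 10 listed genes, Dusp1, Dusp2, Dusp3, Dusp4, Dusp5, Dusp6, Dusp7, Dusp8, Dusp14 and Dusp16, taken by the gene name that the scanner files give to each probe. Of the 10 genes, 9 had a probe (12 probes in all) and no probe carried the name Dusp5. All 9 were among the 17347 genes tested of 21597 named on the array. On mm8, the build of the files, the probe of Dusp1 lies at chr17:26233451-26233508 and that of Dusp2 at chr2:127029635-127029694. Their mRNA was measured on 2-colour Agilent mouse arrays in C57BL/6 cells of 3 kinds: macrophages drawn to the peritoneum by thioglycollate (EPM), macrophages grown from bone marrow with macrophage colony stimulating factor (BMDM), and CD43-negative splenic B cells. Each cell type was treated with Kdo2 lipid A (KLA), a purified agonist of the lipopolysaccharide receptor TLR4, for 1 h or 12 h. The early controls of EPM and B cells had no treatment and that of BMDM had solvent (DMSO) for 1 h, and all 12 h controls had DMSO. Each of the 12 conditions had 2 biological replicates, which shared 1 array as its Cy5 and Cy3 channels (24 channels in all), and each cell type lay on 1 slide. EPM were the adherent cells of a lavage taken after thioglycollate injection, B cells were what remained after magnetic depletion of cells bearing CD43 or CD11b, and ages of the mice were not given in the sources used here.

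MAP kinases (ERK, JNK and p38) are switched on by phosphorylation of a threonine and a tyrosine in their activation loop, and the dual-specificity phosphatases switch them off by removing both phosphates. DUSP1, DUSP2, DUSP4 and DUSP5 are nuclear enzymes whose genes are typically induced by the kinases they inactivate, DUSP6 and DUSP7 are cytoplasmic and act mainly on ERK, DUSP8 and DUSP16 act mainly on JNK and p38, and DUSP3 and DUSP14 are small atypical members without the domain that docks the kinase. In macrophages DUSP1 is known as a brake on p38 and JNK after TLR4 is engaged.

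The promoter windows of Dusp1, Dusp8 and Dusp2 are shown because Dusp1 and Dusp2 had the largest increases with KLA and Dusp1 and Dusp8 were the members whose windows held a cyclic AMP response element (CRE). The sequences are from RefSeq on GRCm38.p6, run from 250 bases before to 50 bases after the start of the gene, and are written 5′ to 3′ on the strand of the gene. Capitals mark the CRE, TGACGTCA, which reads the same on both strands. The Dusp1 window lies at chr17:26508423-26508722 on the minus strand, with 1 CRE that begins 143 bases before the start. The Dusp8 window lies at chr7:142095235-142095534 on the minus strand, with 2 that begin 107 and 63 bases before the start. The Dusp2 window lies at chr2:127335909-127336208 on the plus strand and held none of the motifs searched.
Dusp1: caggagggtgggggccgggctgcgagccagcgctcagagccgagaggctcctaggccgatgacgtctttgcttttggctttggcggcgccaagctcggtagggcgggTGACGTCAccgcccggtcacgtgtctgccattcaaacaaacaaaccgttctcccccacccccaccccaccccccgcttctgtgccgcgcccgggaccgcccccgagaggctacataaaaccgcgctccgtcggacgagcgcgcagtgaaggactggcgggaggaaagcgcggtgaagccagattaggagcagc
Dusp8: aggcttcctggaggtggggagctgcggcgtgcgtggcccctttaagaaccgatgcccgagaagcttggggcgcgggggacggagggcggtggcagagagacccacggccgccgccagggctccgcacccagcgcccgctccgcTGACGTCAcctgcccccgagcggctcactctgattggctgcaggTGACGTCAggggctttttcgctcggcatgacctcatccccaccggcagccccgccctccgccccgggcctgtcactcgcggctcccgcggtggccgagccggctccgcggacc
Dusp2: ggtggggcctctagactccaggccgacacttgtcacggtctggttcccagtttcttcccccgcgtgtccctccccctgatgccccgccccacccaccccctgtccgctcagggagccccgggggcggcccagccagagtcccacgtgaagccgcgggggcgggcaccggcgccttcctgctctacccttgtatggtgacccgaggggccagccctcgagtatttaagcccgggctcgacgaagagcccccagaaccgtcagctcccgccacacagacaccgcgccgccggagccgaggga

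The table of promoters had a window for 9 of the 10 genes, and Dusp4 was not among them. Searched on both strands, 2 of the 9 windows held a CRE, against 1.79% of all 32851 windows, and 1 of the 9, that of Dusp5, held a CArG box (2 copies), against 1.63% of all windows. None held TATAAA (13.6% of all windows), TGACTCA, which on the other strand reads TGAGTCA (5.2%), or the kappaB consensus (8.46%). The 9 windows were rich in G and C, from 57.3% to 78.7% with a median of 69.7%, against a median of 52.7% over all windows. They held 19 to 41 CpG dinucleotides, with a median of 31, against a median of 7. These matches are descriptions of letters in a window, not of binding.

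Before the results, 1 conflict of labels touches every B cell value. Of the 24 columns of normalized values that the authors deposited, 20 were closest to the scanner channels of their own condition, while for B cells the 4 columns named KLA 1 h or 12 h control each matched the other condition's channels best (r of at least 0.96 across probes, against at most -0.69 with their own). The labels of the scanner files were kept, and B cell results are also given with these 2 conditions exchanged. The summed intensity of lineage markers followed the labelled cell types, while detection of single markers did so less. For 7 macrophage markers the sum was 18.5 to 18.9 on the log2 scale in EPM and BMDM. It was 10.9 to 11.7 in B cells, where 5 of the 7 were well above background in all channels and Itgam in none. The sum of 8 B cell markers was 18.1 to 18.4 in B cells, 15.9 to 16.1 in EPM and 14.3 to 14.8 in BMDM. In each macrophage type 5 of the 8 were well above background in all channels. Ebf1 was so in no macrophage channel and Pax5 in no BMDM channel. The sum of 6 neutrophil markers was 13.2 to 13.8 in BMDM controls and 14.3 to 14.6 in BMDM with KLA. In EPM it was 9.89 to 10.01 in both controls, 10.8 to 10.9 at 1 h of KLA and 10.2 to 10.5 at 12 h. That of 5 fibroblast and mesothelial markers was 15.7 to 16.5 in EPM. The sum of 6 T cell markers was 10.4 to 10.7 in the early control and KLA 1 h of B cells, 11.5 to 11.7 in both 12 h conditions of B cells, and 9.28 to 9.91 in macrophages. The part of these other cells in the results was not tested, and in bulk RNA fewer cells of a type and less RNA per cell cannot be told apart.

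At rest the members differed most between B cells and macrophages. In the early controls, Dusp2, first described as a phosphatase of activated blood cells, had log2 intensities of 15.44 and 15.25 in B cells, 11.86 and 11.73 in EPM, and 11.70 and 11.59 in BMDM. Dusp4 was also highest in B cells, with 12.37 and 12.19 in B cells, 10.90 and 10.63 in BMDM, and 10.35 and 10.36 in EPM. Dusp1 ran the other way, at 9.47 and 9.31 in B cells, 11.39 and 11.29 in EPM, and 11.96 and 11.71 in BMDM. The 2 macrophage types thus lay close together for Dusp1, Dusp2 and Dusp4 and apart from B cells, with no overlap between B cells and either macrophage. Between B cells and EPM the channels did not overlap for 9 of 9 members. The share over all genes was not counted, so nothing about the members is read from that count. Dusp3, the atypical member, had 10.65 and 10.44 in EPM, 9.24 and 9.30 in BMDM, and 7.49 and 7.38 in B cells, so that its 3 groups stood apart from each other. Dusp6, the feedback phosphatase of ERK, also separated all 3, with 13.15 and 13.02 in BMDM, 11.69 and 11.73 in EPM, and 10.42 and 10.45 in B cells.

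Against EPM, the early control of B cells was higher for 3 of 9 members and lower for 5 (77.2% of all genes tested were called in either direction). The log2 difference was 3.55 ± 0.11 (SE) for Dusp2 (adjusted p = 1.07e-15), 1.92 ± 0.16 for Dusp4 (adjusted p = 1.58e-09) and 0.28 for Dusp16 (adjusted p = 0.00084). The size for Dusp4 depends on the probe, since its second probe gave 0.73, and the call of Dusp16 was lost without normalization between arrays (0.08, adjusted p = 0.271). It was -3.11 ± 0.07 for Dusp3 (adjusted p = 6.04e-18), -1.95 ± 0.15 for Dusp1 (adjusted p = 6.05e-10), and -1.27 for Dusp6, -0.70 for Dusp8 and -0.30 for Dusp14. The call of Dusp14 was lost without replicate 1 of the EPM control (-0.22, adjusted p = 0.0589). Dusp7 differed by -0.13 (adjusted p = 0.059), and passed the threshold with replicates blocked by dye (the replicate block, adjusted p = 0.0361), without replicate 1 of the EPM control (-0.20, adjusted p = 0.0206) and without replicate 2 of the B cell control (-0.19, adjusted p = 0.0307). It also passed with the mean of probes (adjusted p = 0.0401) and without normalization between arrays (-0.43, adjusted p = 3.67e-06). Between the 2 macrophage types, 6 of 9 members differed (57.8% of all genes tested). BMDM exceeded EPM for Dusp6 by 1.38 ± 0.07 (adjusted p = 4.25e-12), for Dusp7 by 0.63, for Dusp1 by 0.50 and for Dusp4 by 0.41, and were lower for Dusp3 by -1.27 ± 0.07 (adjusted p = 1.89e-11) and for Dusp8 by -0.53. The call of Dusp1 was lost without replicate 1 of the BMDM control (0.37, adjusted p = 0.0949) or replicate 2 of the EPM control (0.45, adjusted p = 0.0538). That of Dusp4 was lost without replicate 1 of the BMDM control (0.28, adjusted p = 0.244) or either EPM control (adjusted p = 0.0996 without replicate 1 and 0.0876 without replicate 2). Dusp2 at -0.15 (adjusted p = 0.269) and Dusp14 at -0.18 (adjusted p = 0.0739) did not pass, and both passed with the replicate block (adjusted p = 0.015 and 0.0105). Dusp14 was also called without replicate 2 of the EPM control (-0.26, adjusted p = 0.0392), in the authors' values (-0.29, adjusted p = 0.0153) and with the mean of probes (-0.23, adjusted p = 0.00577), and Dusp16 differed by 0.01 (adjusted p = 0.869). These shares are near those of all genes, and cell type and slide cannot be told apart. The BMDM control also had DMSO for 1 h, while the others had no treatment. The fit with arrays instead of channels as samples pools the early and 12 h controls of a cell type, so it does not compare cells at rest alone. It called 5 of 9 members between B cells and EPM (Dusp1, Dusp2, Dusp3, Dusp6 and Dusp8) and 2 between BMDM and EPM (Dusp3 and Dusp7). Of all genes it called 9352 of 17347 and 3403 of 17347. Dusp4 then lay at 0.80 in B cells (adjusted p = 0.32) and at -0.16 in BMDM, each against EPM.

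**Figure D1:**
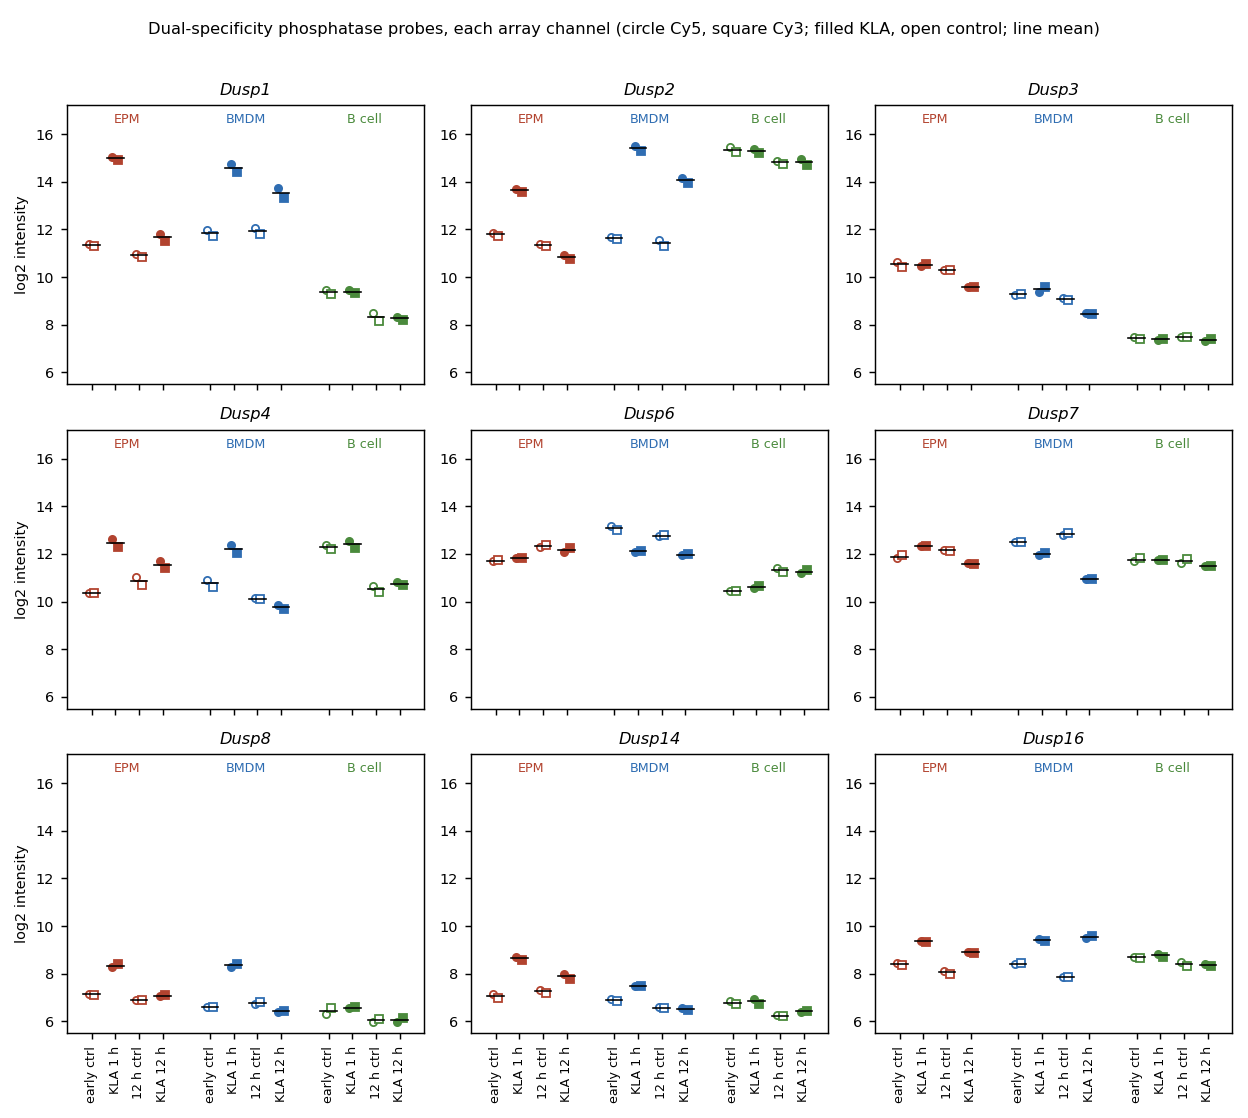
Normalized log2 intensity (vertical axis) of the probe used for each of the 9 measured members, in every channel of the 12 conditions (horizontal axis, by cell type); circles are Cy5, squares Cy3, filled symbols KLA, open symbols controls, and lines the mean of the 2 channels. Dusp1 reached 15.04 and 14.93 in EPM at 1 h of KLA, Dusp2 reached 15.52 and 15.28 in BMDM, and the B cell points of KLA lay beside their controls; levels of different genes come from different probes and are not comparable.

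After 1 h of KLA the phosphatases rose in both macrophages. In EPM 7 of 9 members rose and none fell, where 9.39% of all genes tested rose and 19.7% fell, and the median change of the members was 1.20 on the log2 scale against -0.05 over all genes. In BMDM 7 of 9 rose and 2 fell, where 11.0% of all genes rose and 17.6% fell, with a median of 0.99 against -0.03. Dusp1, Dusp2, Dusp4, Dusp8, Dusp14 and Dusp16 rose in both. The p-values compare the channels of 2 arrays, so that a difference between arrays and an effect of KLA cannot be told apart. With arrays as samples, which pools the early and 12 h controls of a cell type, 1 member was called in each (Dusp1 in EPM, adjusted p = 0.0414, and Dusp2 in BMDM, adjusted p = 0.0165). In that fit 165 of 17345 genes were called in EPM and 99 of 17346 in BMDM.

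Of the nuclear, inducible members, Dusp1 had log2 intensities of 11.39 and 11.29 in untreated EPM and 15.04 and 14.93 after 1 h of KLA. Its increase of 3.65 ± 0.15 (SE), or 12.5-fold, was the largest of the members in EPM (adjusted p = 9.98e-13). In BMDM it went from 11.96 and 11.71 to 14.75 and 14.39, an increase of 2.74 ± 0.15, or 6.67-fold (adjusted p = 6.43e-11). Dusp2 went from 11.86 and 11.73 to 13.69 and 13.57 in EPM, an increase of 1.84 ± 0.11, or 3.57-fold (adjusted p = 5.07e-10). In BMDM Dusp2 led instead, going from 11.70 and 11.59 to 15.52 and 15.28, an increase of 3.75 ± 0.11, or 13.5-fold (adjusted p = 1.26e-14). The level it reached there was that of B cells at rest, where the same probe read 15.44 and 15.25. Dusp4, also known as MKP-2, rose from 10.35 and 10.36 to 12.63 and 12.29 in EPM, by 2.11 ± 0.16 (adjusted p = 6.59e-09). In BMDM it rose from 10.90 and 10.63 to 12.38 and 12.02, by 1.43 ± 0.16 (adjusted p = 1.2e-06). The second Dusp4 probe, of lower intensity, gave 2.33 in EPM and 1.13 in BMDM. For all 3 genes the KLA channels lay above both control channels in both macrophages. Separation of the channels, in either direction, held at 1 h for 8 of 9 members in EPM and 9 of 9 in BMDM. It also held for 3 of 9 in B cells, where none was called. Its share over all genes was not counted, so nothing about the members is read from these counts.

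The cytoplasmic ERK phosphatases moved differently in the 2 macrophages. Dusp6 read 11.69 and 11.73 in untreated EPM and 11.81 and 11.83 with KLA, a difference of 0.11 ± 0.07 (adjusted p = 0.269). It was called in the authors' values (0.25, adjusted p = 0.0239) and with processed signal (0.26, adjusted p = 0.0307), and lay at -0.20 with arrays as samples (adjusted p = 1). In BMDM it fell from 13.15 and 13.02 to 12.10 and 12.12, by 0.98 on the log2 scale (log2 difference -0.98 ± 0.07, adjusted p = 3.31e-09), toward the level of EPM. Dusp7 rose in EPM from 11.82 and 11.95 to 12.32 and 12.33, by 0.44 ± 0.06 (adjusted p = 1.96e-05). In BMDM Dusp7 fell from 12.50 and 12.51 to 11.96 and 12.03 (log2 difference -0.52 ± 0.06, adjusted p = 3.43e-06).

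Both JNK and p38 phosphatases rose in both macrophages. Dusp8 went from 7.16 and 7.09 to 8.26 and 8.4 in EPM, by 1.20 ± 0.08 (adjusted p = 6.45e-10). In BMDM it went from 6.59 and 6.61 to 8.3 and 8.4, by 1.75 ± 0.08, or 3.37-fold (adjusted p = 2.48e-12). The Dusp8 probe is dim and the size depends on the processing, with 2.87 in BMDM from processed signal. Dusp16 went from 8.43 and 8.37 to 9.37 and 9.34 in EPM and from 8.39 and 8.43 to 9.44 and 9.36 in BMDM. Its increases of 0.95 ± 0.07 and 0.99 ± 0.07 were the most alike of the members called in both (adjusted p = 2.61e-09 and 1.57e-09). Of the atypical members, Dusp14 rose in EPM from 7.16 and 7.0 to 8.70 and 8.58, by 1.56 ± 0.08 (adjusted p = 5.25e-11). In BMDM it rose from 6.93 and 6.87 to 7.48 and 7.47, by 0.58 ± 0.08 (adjusted p = 3.37e-05). Its second probe gave 0.77 in EPM and 0.36 in BMDM, and that of Dusp16 gave 0.58 and 0.47, so the sizes depend on the probe. Dusp3 changed by -0.05 in EPM (adjusted p = 0.694) and by 0.21 in BMDM (adjusted p = 0.0299), and the latter was not called without either of the early BMDM control channels (adjusted p = 0.167 without replicate 1 and 0.0594 without replicate 2) or without replicate 2 of BMDM at 1 h (adjusted p = 0.331), nor with an offset of 16, without normalization between arrays or in a fit of BMDM alone (adjusted p = 0.0524, 0.0821 and 0.0687).

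**Figure D2:**
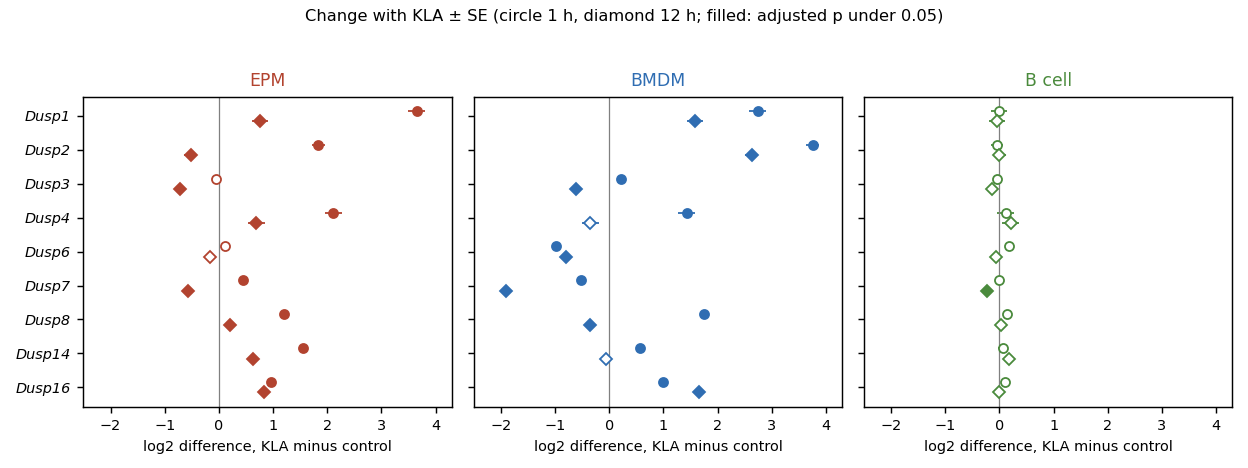
Log2 difference between KLA and its control (horizontal axis) for each member (vertical axis) in EPM, BMDM and B cells. The 1 h control was untreated cells in EPM and B cells and DMSO for 1 h in BMDM, and all 12 h controls had DMSO. Error bars are standard errors of the fit (n = 2 per group), circles are 1 h, diamonds 12 h, and filled symbols have an adjusted p under 0.05. At 1 h the EPM points reach 3.65 for Dusp1 and the BMDM points 3.75 for Dusp2, while all B cell points lie between -0.23 and 0.21.

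By 12 h the members had spread in both directions. In EPM 5 of 9 were higher with KLA than with DMSO and 3 lower, where 19.6% of all genes tested were higher and 34.3% lower, and the median was 0.20 against -0.06 over all genes. In BMDM 3 of 9 were higher and 4 lower, where 28.6% of all genes were higher and 36.3% lower, with a median of -0.35 against -0.03. With arrays as samples, Dusp3 alone was called in EPM (adjusted p = 0.032), and Dusp2, Dusp3, Dusp7 and Dusp16 were called in BMDM (adjusted p = 0.00629, 0.0337, 0.00584 and 0.0275). Of all genes, 2006 of 17345 were then called in EPM and 3653 of 17344 in BMDM.

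Dusp1 was still above its control at 12 h in both macrophages. It read 10.98 and 10.86 with DMSO and 11.82 and 11.53 with KLA in EPM, a difference of 0.75 ± 0.15 (adjusted p = 0.000276). In BMDM it read 12.05 and 11.82 with DMSO and 13.72 and 13.33 with KLA, a difference of 1.59 ± 0.15, or 3.01-fold (adjusted p = 2.28e-08). Dusp2 parted between the 2 cell types. In EPM it was lower with KLA, at 11.41 and 11.32 with DMSO and 10.93 and 10.74 with KLA (log2 difference -0.52 ± 0.11, adjusted p = 0.000696). In BMDM it stayed high, at 11.54 and 11.31 with DMSO and 14.16 and 13.95 with KLA, a difference of 2.63 ± 0.11, or 6.19-fold (adjusted p = 3.64e-13). Dusp4 was higher with KLA in EPM, at 11.70 and 11.40 against 11.04 and 10.67, by 0.69 ± 0.16 (adjusted p = 0.000986), and its second probe gave 1.29. In BMDM Dusp4 read 9.85 and 9.68 with KLA and 10.14 and 10.10 with DMSO (log2 difference -0.35 ± 0.16, adjusted p = 0.057). That difference was called with the replicate block (adjusted p = 0.000294), without normalization between arrays (-0.68, adjusted p = 0.000792), and with the mean of probes, processed signal, a fit of BMDM alone or an offset of 16 (adjusted p = 0.0135, 0.0237, 0.0382 and 0.0498), and the second probe gave -0.31.

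Dusp7, which acts on ERK, had the largest decrease of the members. In BMDM it went from 12.81 and 12.86 with DMSO to 10.94 and 10.93 with KLA (log2 difference -1.90 ± 0.06, or 3.74-fold lower, adjusted p = 5e-15). In EPM it went from 12.18 and 12.14 to 11.60 and 11.57 (log2 difference -0.58 ± 0.06, adjusted p = 2.07e-07). Dusp6 was lower in BMDM, from 12.75 and 12.77 to 11.94 and 11.98 (log2 difference -0.80 ± 0.07, adjusted p = 8.09e-09). In EPM Dusp6 differed by -0.16 ± 0.07 (adjusted p = 0.0585), and passed with the replicate block (adjusted p = 0.035), without replicate 2 of KLA (-0.26, adjusted p = 0.00933), with the mean of probes (adjusted p = 0.0457) or with quantiles over channels (adjusted p = 0.0497), and lay at 0.15 with arrays as samples. Both ERK phosphatases therefore read lower with KLA than with DMSO in both macrophages, and the change of Dusp6 in EPM did not pass the threshold.

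Dusp16 stayed above its control in both macrophages. It read 8.13 and 7.99 with DMSO and 8.92 and 8.86 with KLA in EPM, a difference of 0.83 ± 0.07 (adjusted p = 3.96e-09). In BMDM it read 7.88 and 7.87 with DMSO and 9.5 and 9.58 with KLA, a difference of 1.66 ± 0.07, or 3.17-fold (adjusted p = 1.07e-13), and its second probe gave 0.99. Dusp8, the other JNK and p38 phosphatase, had fallen back, with a difference of 0.20 in EPM (adjusted p = 0.0326, and not called without any 1 of the 4 channels compared, adjusted p = 0.0561 to 0.153, nor in the authors' values, with an offset of 16, processed signal or quantiles over channels, adjusted p = 0.0518 to 0.536) and of -0.36 in BMDM (adjusted p = 0.000443). Dusp14 remained higher in EPM by 0.62 ± 0.08 (adjusted p = 3.86e-06) and differed by -0.05 in BMDM (adjusted p = 0.618). Its second probe gave 0.28 in BMDM and was called there (adjusted p = 0.000746 in a limma fit of single probes). Dusp3, which had not risen at 1 h in EPM, was lower in both, from 10.30 and 10.28 to 9.56 and 9.58 in EPM (log2 difference -0.72 ± 0.07, adjusted p = 7.48e-08) and from 9.11 and 9.05 to 8.49 and 8.44 in BMDM (log2 difference -0.62 ± 0.07, adjusted p = 4.02e-07).

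Tested directly, the change with KLA was smaller, or more negative, at 12 h than at 1 h for 8 of 9 members in EPM (43.7% of all genes tested differed in either direction). The call of Dusp6 in EPM (-0.27, adjusted p = 0.032) was lost without replicate 1 of the early control, replicate 2 of the 12 h control, replicate 1 of KLA at 12 h or either replicate of KLA at 1 h (-0.28 to -0.17, adjusted p = 0.0619 to 0.189). It was also lost without normalization between arrays (-0.08, adjusted p = 0.52), in the authors' values, with an offset of 16, processed signal, centring on all genes or a fit of EPM alone (adjusted p = 0.0514 to 0.101). In BMDM the change was smaller, or more negative, at 12 h for 7 of 9, with 1 that was larger, Dusp16 (54.4% of all genes differed in either direction). The share of all genes that differed in 1 direction alone was not counted in EPM or BMDM. Among the 7 was Dusp14 (-0.63), whose second probe gave -0.09 in BMDM. The 5 members whose response differed by at least 1 on the log2 scale were Dusp1, Dusp2, Dusp4, Dusp7 and Dusp8 in both cell types. In EPM the difference, 12 h minus 1 h, was -2.89 ± 0.21 for Dusp1 (adjusted p = 2e-09) and -2.36 ± 0.16 for Dusp2 (adjusted p = 8.42e-10). In BMDM it was -2.11 ± 0.11 for Dusp8 (adjusted p = 1.03e-11) and -1.78 ± 0.22 for Dusp4 (adjusted p = 1.7e-06). With arrays as samples, where both times share the pooled controls, 4 members in EPM (Dusp1, Dusp2, Dusp3 and Dusp8) and 3 in BMDM (Dusp3, Dusp7 and Dusp8) were called. Over all genes it was 1290 of 17343 in EPM and 1997 of 17343 in BMDM. With channels as samples, the EPM response was taken against untreated cells at 1 h and against DMSO at 12 h.

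The response differed between BMDM and EPM for 6 of 9 members at 1 h, where 9.56% of all genes tested differed, and for 8 of 9 at 12 h, where 47.8% did. The 1 h responses had unlike controls, untreated cells in EPM and DMSO for 1 h in BMDM, and the part of this was not tested. At 1 h the response of Dusp2 was larger in BMDM by 1.92 ± 0.16 (adjusted p = 1.54e-07) and that of Dusp6 was lower in BMDM by -1.09 ± 0.10 (adjusted p = 3.81e-07). Dusp4 was not called at 1 h (-0.68, adjusted p = 0.066), while the mean of its probes gave -0.94 (adjusted p = 0.00048) and its second probe -1.20. It also passed with processed signal (adjusted p = 0.0184) and without normalization between arrays (adjusted p = 0.0273). Further, it passed with the replicate block (adjusted p = 8.98e-05) and without replicate 1 of BMDM with KLA, replicate 2 of the BMDM control or replicate 2 of EPM with KLA (adjusted p = 0.0302, 0.0482 and 0.035). Dusp1 (-0.91, adjusted p = 0.00774) lost its call without replicate 2 of BMDM with KLA (-0.73, adjusted p = 0.0539) or replicate 1 of the BMDM control (-0.79, adjusted p = 0.0509). Dusp3 (0.26, adjusted p = 0.126) was called without replicate 1 of BMDM with KLA (adjusted p = 0.0395) or replicate 2 of the EPM control (adjusted p = 0.033). At 12 h the response of Dusp2 was larger in BMDM by 3.15 ± 0.16 (adjusted p = 2.44e-11), and those of Dusp7 (-1.33 ± 0.09, adjusted p = 6.71e-10) and Dusp4 (-1.05 ± 0.22, adjusted p = 0.000763) were lower. With arrays as samples none of the 9 was called at either time (limma). Over all genes, 0 of 17344 were called at 1 h and 107 of 17342 at 12 h. For Dusp2 the value was 1.81 at 1 h (adjusted p = 0.918) and 3.26 at 12 h (adjusted p = 0.0572).

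**Figure D3:**
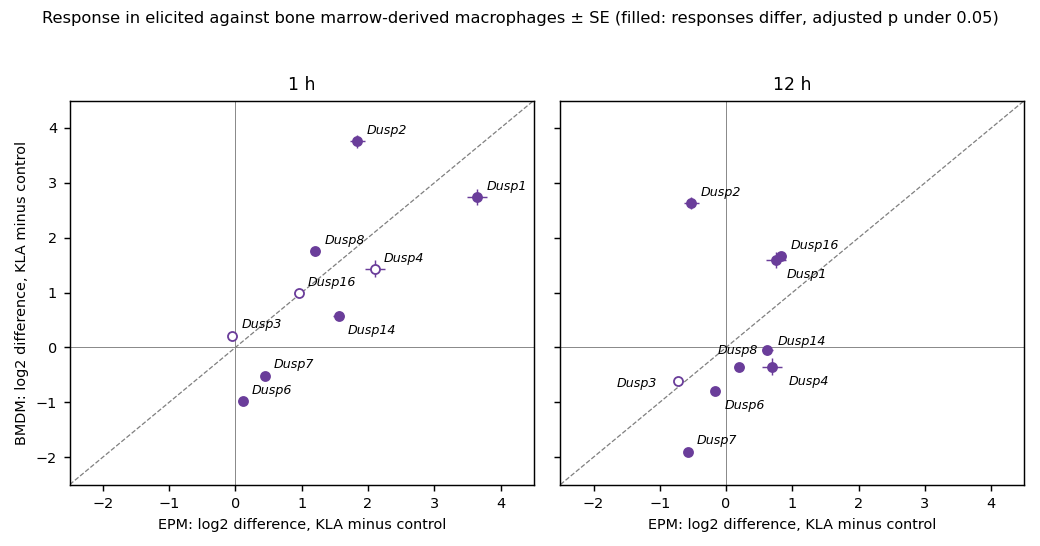
Log2 difference between KLA and control in EPM (horizontal axis) and in BMDM (vertical axis) for each member at 1 h and at 12 h; error bars are standard errors of the fit, filled points have responses that differ at an adjusted p under 0.05, and the dashed line marks equal responses. Dusp2 lies above the line at both times, at 1.84 and 3.75 at 1 h and at -0.52 and 2.63 at 12 h, and Dusp7 lies below it at both.

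In B cells with the labels as given, no member changed at 1 h (limma, 0 of 9 called and 1, Dusp6, at an unadjusted p under 0.05), where 2.72% of all genes tested rose and 2.45% fell. At 12 h 1 of 9 fell, where 2.81% of all genes rose and 2.48% fell. That was Dusp7, from 11.62 and 11.79 with DMSO to 11.49 and 11.47 with KLA (log2 difference -0.23 ± 0.06, adjusted p = 0.036), and it was not called without replicate 2 of the control (-0.14, adjusted p = 0.369) or without either KLA replicate (adjusted p = 0.125 and 0.142). With the replicate block Dusp14 was also called at 12 h (0.18, adjusted p = 0.0497). Dusp1 read 9.47 and 9.31 without treatment and 9.44 and 9.33 at 1 h of KLA, and 8.47 and 8.13 with DMSO and 8.34 and 8.19 with KLA at 12 h. Dusp2 read 15.44 and 15.25 without treatment and 15.38 and 15.21 at 1 h, and 14.89 and 14.76 with DMSO and 14.95 and 14.70 with KLA at 12 h. Dusp4 read 12.37 and 12.19 without treatment, 12.55 and 12.24 at 1 h, 10.67 and 10.40 with DMSO and 10.80 and 10.69 with KLA at 12 h. For each of these 3 genes the 1 h channels sat with the untreated channels and the 2 conditions of 12 h sat together and lower. Dusp8 was not well above background in any B cell channel at 12 h.

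With the 2 conditions in conflict exchanged, 7 of 9 members were called at 1 h and 8 of 9 at 12 h in B cells, where 47.4% and 49.1% of all genes tested were called. Dusp1 then differed by -1.09 at 1 h (adjusted p = 6.81e-06) and -1.12 at 12 h (adjusted p = 4.7e-06), Dusp2 by -0.52 and -0.47, and Dusp4 by -1.74 and -1.66 (adjusted p = 3.56e-08 and 7.71e-08). Dusp6 was the member called higher at both times, by 0.88 and 0.65. Under either labelling no called increase of Dusp1, Dusp2 or Dusp4 was found in B cells.

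**Figure D4:**
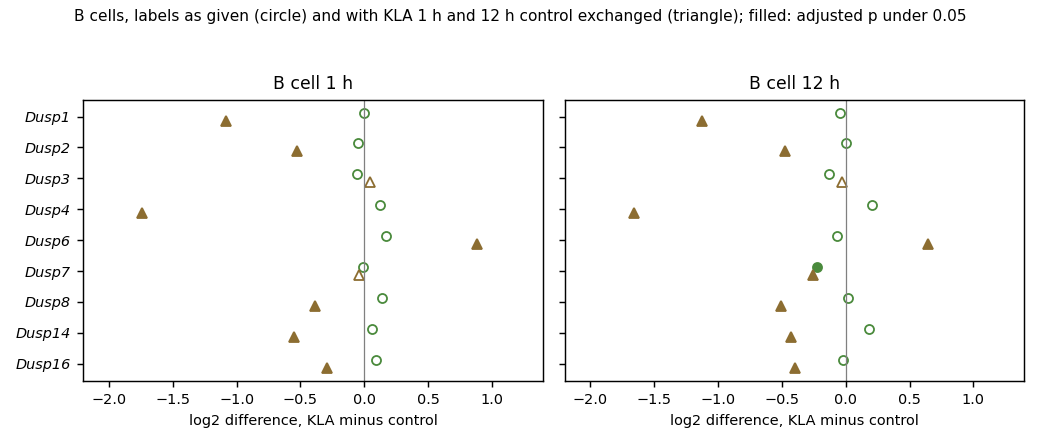
Log2 difference between KLA and control in B cells (horizontal axis) for each member (vertical axis) at 1 h and 12 h, with the labels of the scanner files (circles) and with KLA 1 h and the 12 h control exchanged (triangles); filled symbols have an adjusted p under 0.05. The circles lie between -0.23 and 0.21, and the triangles run from -1.74 for Dusp4 to 0.88 for Dusp6 at 1 h.

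Against the mean response of the 2 macrophages, the response of B cells differed for 7 of 9 members at 1 h (21.9% of all genes tested) and for 6 of 9 at 12 h (55.8%). At 1 h it was lower by -3.20 ± 0.18 for Dusp1 (adjusted p = 1.98e-10), -2.85 ± 0.14 for Dusp2 (adjusted p = 2.23e-11), -1.65 for Dusp4, -1.34 for Dusp8 and -1.01 for Dusp14. With the labels exchanged these became -4.28, -3.32, -3.51, -1.87 and -1.62, in the same direction, with 7 of 9 members called (49.8% of all genes). The size for Dusp14 depends on the probe, since its second probe gave -0.59 with the labels as given. At 12 h it was lower for Dusp16 by -1.27 ± 0.08 (adjusted p = 2.33e-10), for Dusp1 by -1.22 and for Dusp2 by -1.05, and higher for Dusp7 by 1.01 ± 0.07 (adjusted p = 1.87e-09). Exchanged, they were -1.65, -2.30, -1.53 and 0.98, with 9 of 9 members called (65.8% of all genes). With the labels as given Dusp14 was not called at 12 h (-0.10, adjusted p = 0.408), while its second probe gave -0.40 and the mean of its probes was called (-0.25, adjusted p = 0.0114). With arrays as samples none of the 9 was called at either time (limma), where 57 of 17344 genes were called at 1 h and 1304 of 17342 at 12 h. Dusp2 at 1 h then had -2.75 (adjusted p = 0.0976). With channels as samples, the 1 h controls were untreated in B cells and EPM and had DMSO for 1 h in BMDM, and the part of this was not tested.

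The 7 lists of other genes give the rest of the pathway, with 69 genes tested in all. Of these, 12 rose and 9 fell in EPM at 1 h, 9 and 10 in BMDM at 1 h, 17 and 25 in EPM at 12 h, and 21 and 23 in BMDM at 12 h. In B cells none was called at 1 h (limma, 12 at an unadjusted p under 0.05) and 1 fell at 12 h, and with the labels exchanged 17 rose and 18 fell at 1 h and 19 rose and 22 fell at 12 h. Beside these counts, the share of all genes called in either direction was 29.1% in EPM and 28.6% in BMDM at 1 h, and 53.9% and 65.0% at 12 h. In B cells it was 5.17% at 1 h and 5.29% at 12 h with the labels as given, and 47.4% and 49.1% with the labels exchanged. Nothing particular to the pathway is read from the counts. Of the 11 MAP kinases themselves, 1 rose and 2 fell in EPM and 2 rose and 1 fell in BMDM at 1 h, and 4 rose and 2 fell in EPM and 1 rose and 4 fell in BMDM at 12 h. Mapk7, which encodes ERK5, fell in EPM at 1 h (log2 difference -0.61, adjusted p = 7.71e-06), Mapk8, a JNK gene, rose by 0.28, and in BMDM at 1 h Mapk6 rose by 0.40 and Mapk14, which encodes p38 alpha, fell (log2 difference -0.29). At 12 h in EPM Mapk3, which encodes ERK1, fell (log2 difference -0.80), and Mapk10, a JNK gene, read 7.82 with KLA and was not well above background with DMSO (5.94), so that it was at least 3.4-fold higher (adjusted p = 2.53e-14). At 12 h in BMDM Mapk9 rose by 0.64 and Mapk14 fell (log2 difference -0.54).

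Of the 7 MAP kinase kinases, 2 fell and none rose at 1 h in each macrophage (limma, counts at the adjusted threshold), with Map2k7, an activator of JNK, the lowest in both (-0.37 and -0.38). At 12 h 3 rose and 3 fell in EPM and 3 rose and 1 fell in BMDM. Map2k1, which encodes the ERK activator MEK1, rose by 1.71 ± 0.07 in EPM (adjusted p = 3.46e-13) and by 1.39 in BMDM (adjusted p = 5.08e-12), while Map2k7 fell in EPM (log2 difference -0.46) and Map2k5 in BMDM (-0.19). Of 12 MAP kinase kinase kinases and Raf genes, 3 rose and none fell at 1 h in each macrophage, and 2 rose and 5 fell in EPM and 2 rose and 6 fell in BMDM at 12 h. Map3k8, which encodes TPL2, the kinase that links TLR4 to ERK, rose by 0.97 in EPM at 1 h (adjusted p = 2.73e-05), by 0.61 in EPM at 12 h and by 1.51 in BMDM at 12 h (adjusted p = 1.67e-08). Map3k6 rose by 0.98 in BMDM at 1 h, and the largest decreases at 12 h were of Map3k1 in EPM (-0.67) and Map3k5 in BMDM (-0.79).

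Of 10 kinases downstream of the MAP kinases, 2 rose and 2 fell in EPM and 1 rose and 2 fell in BMDM at 1 h, and 3 rose and 5 fell in EPM and 4 rose and 4 fell in BMDM at 12 h. Mapkapk2, the p38 substrate that stabilises cytokine mRNAs, was the largest increase in all 4 comparisons, at 0.87 and 1.06 in EPM and 0.82 and 1.11 in BMDM at 1 h and 12 h. Mknk2, which acts on the translation factor eIF4E, was the largest decrease in all 4, at -0.64 and -1.45 in EPM and -0.50 and -1.46 in BMDM. Of 8 tyrosine and serine phosphatases of MAP kinases, 1 fell at 1 h in each macrophage, the tyrosine phosphatase Ptpn7 (-0.52 in EPM and -0.55 in BMDM), and none rose. At 12 h 2 fell and none rose in EPM, and 2 rose and 4 fell in BMDM, with Ptpn7 again the largest decrease (-0.52 and -0.80) and Ppp2ca, the catalytic subunit of PP2A, the largest increase in BMDM (0.47).

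Of 15 other dual-specificity phosphatases tested, 1 rose and 2 fell in EPM and 1 rose and 4 fell in BMDM at 1 h, with a median of -0.08 in both. Dusp11, a phosphatase of RNA, was the one that rose, by 0.32 and 0.37, and the largest decreases were of Dusp12 in EPM (-0.31) and Dusp15 in BMDM (-0.40). At 12 h 3 rose and 7 fell in EPM and 6 rose and 4 fell in BMDM, led by the slingshot phosphatase of cofilin Ssh1 (0.74 and 1.07), with Dusp13 the largest decrease in EPM (-0.53) and Ssh2 in BMDM (-0.91). Of 6 Sprouty and Spred inhibitors tested, which act upstream on Ras and Raf, 5 rose and none fell in EPM and 2 rose and none fell in BMDM at 1 h, with medians of 0.55 and 0.12. Spry1 rose most, by 1.39 in EPM (adjusted p = 9.23e-12) and 0.73 in BMDM. At 12 h 2 rose and 1 fell in EPM and 3 rose and none fell in BMDM, where Spred1 rose most (1.15 and 0.66) and Spry4 fell in EPM (-0.32).

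Over the 12 condition means, the tested genes most like a member in pattern were found for the 7 members with a called change of at least 1 on the log2 scale in a macrophage. These correlations describe 12 points that share 3 slides, and no test was made. The pattern of Dusp1 was most like those of Vps37c, the transcription factor gene Klf6 and LOC669304 (Pearson r of 0.97 each). That of Dusp2 was most like Kcna3, a potassium channel gene (0.97), Kremen1 (0.96) and Ccnl1 (0.95). For Dusp4 they were the oncogene Myc (0.91), Ciapin1 (0.90) and Gtpbp4 (0.88), and for Dusp8 they were 5530400B01Rik (0.98), Errfi1, an inhibitor of the EGF receptor (0.97), and Npal1 (0.95). For Dusp14 they were the AP-1 gene Fosl1 (0.94), F3, which encodes tissue factor (0.93), and Ifrd1 (0.92). Dusp7 was most like Mxd3 (0.92), Avpi1 (0.92) and Paics (0.91), and Dusp16 like Zswim4 (0.94), Btbd4 (0.93) and Sbds (0.92).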

How the data were processed

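Total RNA of 2 biological replicates per condition was amplified and labelled with Cy5 or Cy3 and hybridised to 1 Agilent array per condition, giving 12 arrays with 24 channels on 3 slides. The authors deposited scanner files with per-spot intensity (mean signal, median background, processed signal) made with Agilent Feature Extraction 9.5.3.1, and normalized intensity values whose normalization is not given in the sources used here. Probe coordinates in the files are on mm8. Samples were grouped by their labels, and channels were read by dye.

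Normexp with an offset of 50 was fitted on every spot, control spots were dropped, and arrays were normalized by loess within each array and by quantiles of average intensity (Aquantile) between them. Single-channel log2 values of 41174 probes were used, of which 34850 carried a gene symbol, and each gene took the probe whose mean over all channels was highest. It was tested if, in 1 condition or more, both channels of that probe were well above background. All 9 members with a probe were kept, each with the probe well above background in 20 to 24 of the 24 channels, and no spot was saturated. Per channel, 57.4% to 65.0% of probes were well above background, and precision is limited by how few arrays there are.

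One model with a coefficient per condition was fitted over all channels with limma 3.58.1 in R 4.3.3 (statmod 1.5.0, data.table, version 1.17.8), with 12 residual degrees of freedom, two-sided moderated tests and Benjamini-Hochberg adjustment over all genes at a threshold of 0.05. Since both replicates of a condition share an array, p-values measure only the spread between channels. A fold against a group not well above background is a lower bound, taken against whichever is higher in each channel, the probe or the dimmest probe well above background (5.44 to 6.16 on the log2 scale). In a simulation of the EPM 1 h comparison over 17239 genes, 100 of 100 genes changed 2-fold and 99 of 100 changed 4-fold were recovered, with 12 false calls. Each condition of the data had 1 array, so these counts give no rate of false calls from differences between arrays. With arrays as samples, the genes called in that comparison went from 5049 to 165.

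Replicates are named by their dye. The Cy5 minus Cy3 difference was correlated across genes for all 66 pairs of arrays (r of 0.27 to 0.63), so the dye pairs the channels, and a fit with it as the replicate block was made.

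The members, the lists and the rule for named genes (all members, the largest called increase and decrease of each list in each macrophage comparison, differences of responses of at least 1 on the log2 scale, and the 3 genes most like a member) were chosen with earlier results of these data known. Some differences of responses under 1 whose call changed with a setting were also named, and others were not. The alternatives were an offset of 16, processed signal, other normalization between arrays, the authors' values, other filters, a threshold of 0.01, the mean of probes, the replicate block, single cell types, arrays as samples, centring on all genes, exchanged B cell labels and leaving out each replicate. Proteins were not analysed here.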

Additional observations from a re-analysis of the deposited data

Results flagged for a closer look

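Several responses differed between times or between cell types by at least 1 on the log2 scale at an adjusted p under 0.05 in a direct limma test of the difference. In EPM the change with KLA at 12 h minus that at 1 h was -2.89 for Dusp1, -2.36 for Dusp2, -1.41 for Dusp4, -1.02 for Dusp7 and -1.0 for Dusp8. In BMDM it was -1.15 for Dusp1, -1.12 for Dusp2, -1.78 for Dusp4, -1.39 for Dusp7 and -2.11 for Dusp8.

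BMDM minus EPM, the response differed at 1 h by 1.92 for Dusp2 and -1.09 for Dusp6, and at 12 h by 3.15 for Dusp2, -1.05 for Dusp4 and -1.33 for Dusp7.

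B cells minus the mean of both macrophages, it differed at 1 h by -3.20 for Dusp1, -2.85 for Dusp2, -1.65 for Dusp4, -1.34 for Dusp8 and -1.01 for Dusp14, and at 12 h by -1.22 for Dusp1, -1.05 for Dusp2, 1.01 for Dusp7 and -1.27 for Dusp16. For Dusp14 at 1 h the second probe gave -0.59. Differences between cell types cannot be told apart from differences between slides. At 1 h they also cannot be told apart from unlike controls, which were untreated in EPM and B cells and had DMSO in BMDM.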

How the results depend on the processing

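Calls moved most when arrays took the place of channels as samples (3 residual degrees of freedom, early and 12 h controls pooled). The members called were then 1 in EPM at 1 h, 1 in EPM at 12 h, 1 in BMDM at 1 h, 4 in BMDM at 12 h and 0 in B cells at 12 h. They were 2 for the pooled controls of BMDM against EPM and 5 for those of B cells against EPM. For 12 h against 1 h they were 4 in EPM and 3 in BMDM, and 0 for each difference between BMDM and EPM responses and between B cell and macrophage responses (limma). The numbers of all genes called in that fit are given with the results above, and in B cells at 12 h it was 1 of 17347. Among the values called with channels, 2 changed sign with arrays as samples and were no longer called. They were Dusp4 in BMDM against EPM (at rest with channels, -0.16 with the pooled controls) and Dusp6 in EPM for 12 h against 1 h (0.35). Values not called in either fit changed sign too, such as Dusp6 in EPM (-0.20 at 1 h and 0.15 at 12 h), Dusp3 in EPM at 1 h (0.08) and Dusp1 in B cells at 1 h (0.54). The difference of the Dusp3 response between BMDM and EPM at 12 h was 0.11 and not called (limma, adjusted p = 0.413). Without normalization between arrays it turned to -0.36 and was called (adjusted p = 0.00554).

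In B cells, exchanging the labels gave 7 members called at 1 h and 8 at 12 h. The authors' table, which carries that exchange, also gave 7 and 8. Of all genes, 8218 of 17344 were called at 1 h and 8526 of 17347 at 12 h with the labels exchanged. In the authors' values it was 7161 of 17069 at 1 h and 7561 of 17069 at 12 h. Nothing particular to the members is read from these counts. Values that changed sign were, with exchanged labels and in the authors' table, at 1 h Dusp4 -1.74 and -1.63, Dusp8 -0.39 and -0.56, Dusp14 -0.55 and -0.58 and Dusp16 -0.29 and -0.30, at 12 h Dusp4 -1.66 and -1.58, Dusp6 0.65 and 0.66, Dusp8 -0.51 and -0.68 and Dusp14 -0.43 and -0.54, and against macrophages at 12 h Dusp4 -1.83 and -1.81 and Dusp8 -0.43 and -0.57. The 1 call of B cells at 12 h became 0 with an offset of 16, processed signal, no normalization between arrays, probes well above background in all channels, a fit of the single cell type and a threshold of 0.01, and 2 with the replicate block. The cause of these changes was not tested.

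With processed signal the values of the dim probes grew, Dusp8 in BMDM to 2.87 at 1 h and -1.04 at 12 h and Dusp14 in BMDM at 1 h to 1.09, and Dusp6 in BMDM at 12 h shrank to -0.47.

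The replicate block changed 7 of 126 values past the threshold, all given beside their results, and changed no other call. Leaving out 1 replicate kept the direction and the call in 760 of 792 values, lost 23 calls and added 9. The members called ranged over 7 to 7 in EPM at 1 h, 7 to 8 in EPM at 12 h, 8 to 9 in BMDM at 1 h, 7 to 7 in BMDM at 12 h, 0 to 0 in B cells at 1 h, 0 to 1 in B cells at 12 h, 4 to 6 for BMDM and 8 to 9 for B cells against EPM at rest, and 5 to 8 for the BMDM against EPM responses at 1 h. The increases of Dusp1 in EPM (3.59 to 3.97) and of Dusp2 in BMDM (3.64 to 3.87) at 1 h, and the change of Dusp7 in BMDM at 12 h (-2.08 to -1.57), were called under all 17 alternatives run for each.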
